A study of Mus musculus with 35 samples.

Results

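The comparison described here is between cortical astrocytes collected 3 h after an injection of lipopolysaccharide (LPS, 5 mg/kg) and those collected 3 h after saline, in female mice. It was delimited by the treatment, time and sex in the labels and holds 5 LPS and 4 saline libraries, 9 of the 35 in the series, each with values for 19426 tested genes. All mice, controls included, carried the Aldh1l1egfp allele, which makes green fluorescent protein under the control of the astrocyte gene Aldh1l1, and were 30 to 35 days old. Astrocytes were sorted from the cortex by flow cytometry, and the gate therefore selected the cells in which that promoter was active. Nothing in the labels ties each library to an animal of its own, and the p-values therefore reflect variation among libraries that may be partly technical. Females treated for 24 h (4 LPS and 5 saline libraries) and 72 h (3 LPS and 4 saline) serve below to place the 3 h response in time.

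LPS is a component of the outer membrane of Gram-negative bacteria and is sensed through Toll-like receptor 4. In the brain this receptor is known mainly from microglia and vascular cells, and astrocytes also respond to the cytokines that such cells release. The early transcriptional response to LPS is known for chemokines, interferon-stimulated genes and NF-kB targets, and within the same hours for feedback inhibitors that limit signalling. The leading rises and falls below are of genes outside the familiar panels. These panels were taken as interferon-response genes, cytokines and chemokines, NF-kB members, STAT3 and acute-phase genes and major histocompatibility complex genes. Glucocorticoid targets, reactive astrocyte panels, complement and immediate early genes were also counted among them. Membership was decided by fixed lists of gene names. Genes related to these kinds but not on a list, such as Il1rn, Slfn5 and Trim30a, therefore count as outside. The gene lists and the comparisons between times include panel members as well. Among the genes tested these were 7 of 41 stress- and signal-responsive transcription factors, 5 of 27 genes of the TNF receptor list and 3 of 16 of the caspase list.

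Expression was measured as FPKM, a read density scaled to transcript length and library size, which the authors deposited. Levels can therefore be compared between genes, and fold changes are differences of log2(FPKM + 1) fitted with limma, which understate changes of genes with low values. In the 9 libraries FPKM summed to between 458665 and 544963, and 15815 to 16467 genes reached 1 FPKM. Depth in reads is not known for these values, so no counting error is given, and 0 is reported as listed at 0. The LPS libraries 4 and 5 stood apart from the rest: mitochondrial genes took 7.17% and 7.63% of their FPKM sum, against 17.8% to 21.8% in the LPS libraries 1 to 3 and 13.9% to 22.7% in saline. They also had the highest summed oligodendrocyte markers (1287 and 1569 FPKM, against 585 to 945 FPKM in the other 3 h libraries) and precursor markers (89.8 and 90.03 FPKM, against 35.9 to 65.4 FPKM).

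The sorted cells carried the astrocyte markers. The summed FPKM of 12 astrocyte markers was 7200 to 9607 in saline and 7653 to 10739 in LPS libraries, and none of the 12 passed the test (median log2 change 0.18). The 18 microglial markers summed to 311, 357, 339 and 544 FPKM in saline replicates 1 to 4 and to 321, 383, 233, 189 and 197 FPKM in LPS replicates 1 to 5, so the groups overlapped. The 15 endothelial markers summed to 511 to 617 FPKM in saline and to 373 to 418 FPKM in LPS libraries, with no overlap. Slco1c1 alone gave 234 to 326 FPKM of the saline sums and 234 to 331 FPKM of the LPS sums. The 6 border macrophage markers measured were at 21.6 to 53.3 FPKM in saline, at 18.5 to 28.2 FPKM in LPS libraries 1 to 3, and at 3.24 and 1.70 FPKM in LPS libraries 4 and 5. The deposited table holds only genes with a mean of about 0.5 FPKM or more, so markers near 0 could not be looked up. In sorted bulk RNA, fewer cells of a type and less RNA per cell cannot be told apart.

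**Figure D1:**
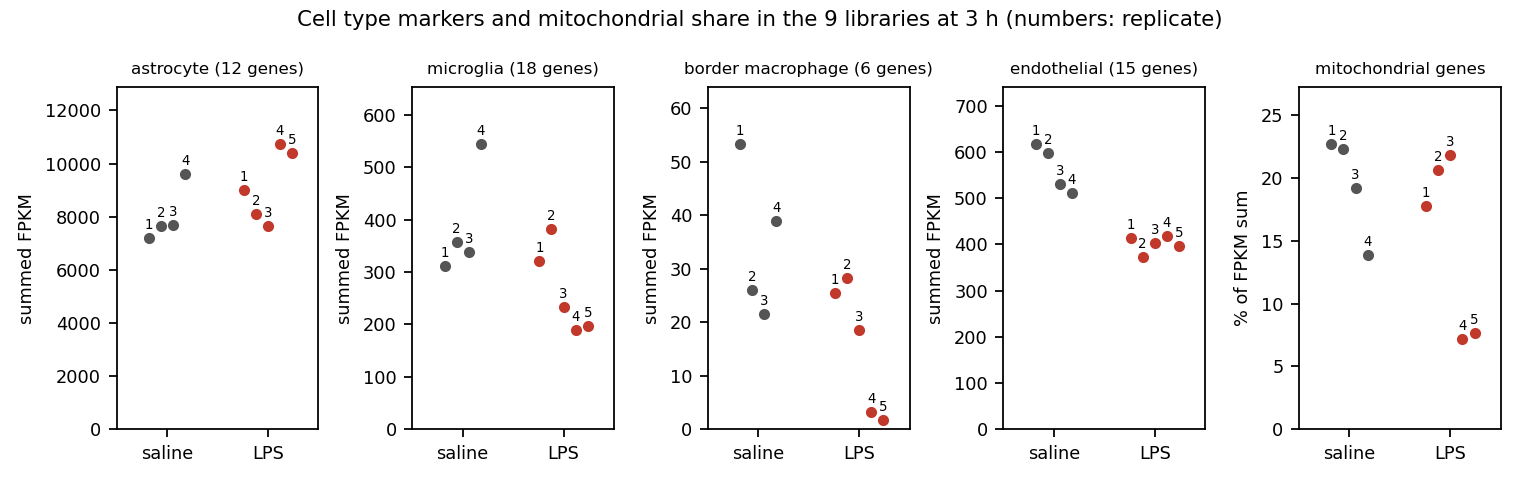
Summed FPKM of astrocyte, microglial, border macrophage and endothelial markers, and the percentage of the FPKM sum taken by mitochondrial genes, in each library at 3 h (grey saline, red LPS, numbers give the replicate). The endothelial sums of the 2 groups do not overlap, and LPS libraries 4 and 5 have the lowest border macrophage sums, 3.24 and 1.70 FPKM, and the lowest mitochondrial shares.

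At 3 h, 376 genes were higher after LPS (1.94% of those tested) and 86 were lower (0.443%), at an adjusted p under 0.05 in limma. LPS and saline libraries did not overlap for 909 genes (4.68%), among them 319 of the higher and 70 of the lower genes. Of the higher genes, 127 belonged to the familiar panels and 249 did not, while none of the 86 lower genes did. The 249 outside the panels rose by log2 0.57 to 4.42 with a median of 1.37, and 50 of them rose by more than 2. Most were low in saline: 91 had a saline mean under 1 FPKM, 123 between 1 and 10 FPKM and 35 at 10 FPKM or above, and 8 were listed at 0 in every saline library. For 31 of the 376 higher genes the low-value filter was met only through the LPS libraries at 3 h. Among the 376 higher genes, 55 overlap another called gene, 43 of them on the opposite strand, so that reads may have been shared. The lower genes fell by log2 0.61 to 3.27, and 38 of them had an LPS mean under 1 FPKM. In the authors' deposited table, 489 of 18763 genes with an adjusted p were higher at 3 h (2.61%) and 154 lower (0.821%), and it also called 382 of the 462 genes found here, all with the same sign.

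**Figure D2:**
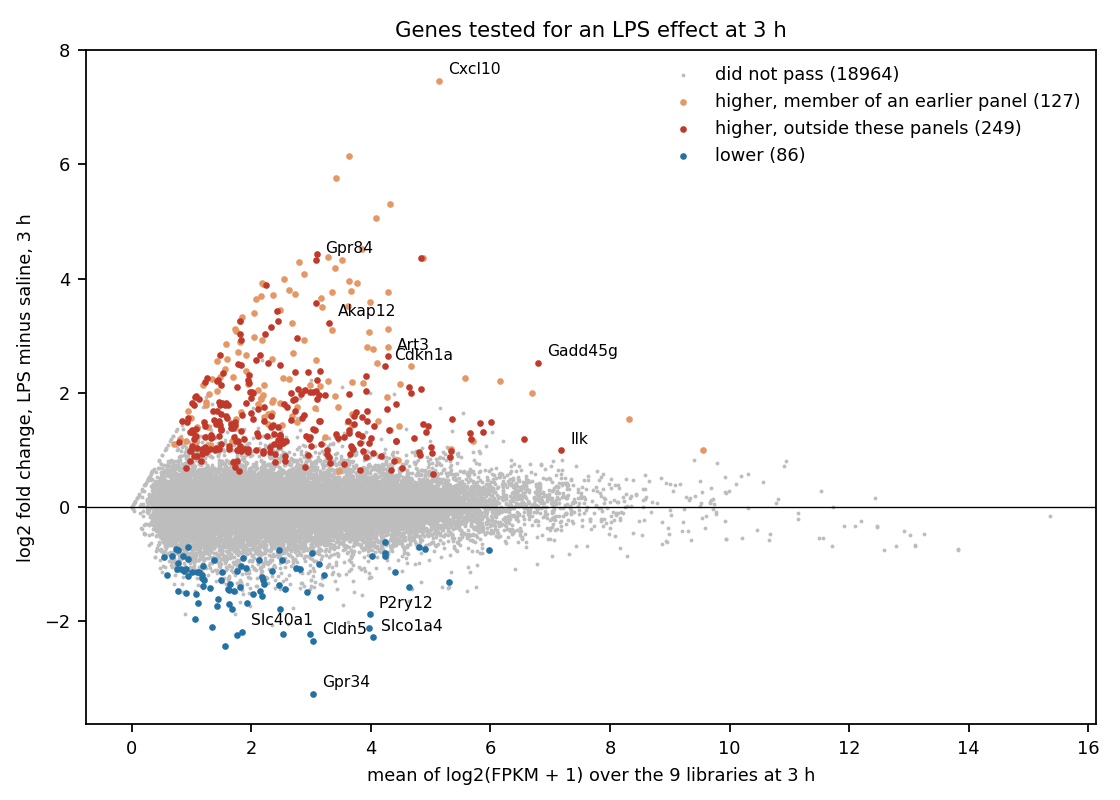
Fitted log2 fold change (LPS minus saline at 3 h) against mean log2(FPKM + 1) over the 9 libraries, 1 point per gene tested. Higher genes are drawn by whether they belong to a familiar panel (127) or not (249) and lower genes (86) apart, and Gpr34 has the largest labelled fall (log2 -3.27).

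Among genes outside the panels with an established symbol and no overlap between groups, the largest rise was that of Gpr84, a receptor for medium-chain fatty acids known from macrophages and activated microglia (chromosome 15, 103308235 to 103310612, GRCm38). It was at 0.547, 1.04, 0 and 1.05 FPKM in the 4 saline libraries and at 35.4, 40.4, 24.9, 24.8 and 33.0 FPKM in the 5 LPS libraries. All LPS libraries were thus far above all saline libraries (log2 fold change 4.33 ± 0.30 SE, adjusted p = 2.83e-12), and libraries 4 and 5 were close to the others. The antisense gene RP23-422H17.5, which rose by 4.42, overlaps part of Gpr84 on the opposite strand, and the labels state no strand setting, so reads of the pair cannot be told apart. Tmem252 showed an equally tight pattern, with 0.792, 1.54, 1.20 and 1.12 FPKM in saline and 33.5, 22.2, 25.0, 18.1 and 25.6 FPKM in LPS libraries (3.56 ± 0.29, adjusted p = 4.43e-11).

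Another group of rises was uneven among the LPS libraries. Il1rn, the secreted antagonist of the interleukin-1 receptor (chromosome 2, 24336853 to 24351494), was at 0.157, 0.0312, 0 and 0.0534 FPKM in saline. After LPS it was at 40.8, 45.4 and 41.6 FPKM in libraries 1 to 3 but at 3.26 and 1.61 FPKM in libraries 4 and 5 (3.88 ± 0.54, adjusted p = 6.36e-06). Casp4, the mouse caspase-11 that senses LPS in the cytosol and starts pyroptosis, had the same order, at 16.1, 15.3, 12.6, 4.69 and 1.63 FPKM after LPS against 0 to 0.180 FPKM in saline (3.02 ± 0.45). Samsn1, an adaptor protein of haematopoietic cells, was at 11.5, 11.5, 7.39, 3.48 and 2.88 FPKM after LPS against 0 to 0.837 FPKM in saline (2.51 ± 0.33). In each of the 3 genes the LPS libraries 4 and 5 were the lowest, as they were for the border macrophage and microglial marker sums given above, whose part in this was not tested.

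Ch25h, which makes the antiviral oxysterol 25-hydroxycholesterol, was at 0 to 0.926 FPKM in saline and at 20.1, 26.4, 21.3, 7.82 and 6.98 FPKM after LPS (3.43 ± 0.30). Cd274 encodes PD-L1, the ligand of the T cell inhibitory receptor PD-1 (chromosome 19, 29367455 to 29388095), and was at 0.168 to 0.787 FPKM in saline and at 18, 17.3, 18.2, 9.99 and 8.69 FPKM after LPS (3.26 ± 0.21, adjusted p = 8.95e-13). Plaur, the urokinase receptor, rose from 0.271 to 1.02 FPKM in saline to 9.37 to 14 FPKM (3.16 ± 0.24). These 3 genes had no overlap between groups, which their choice as leading rises required. Tlr2, the receptor for bacterial lipoproteins (3.02 ± 0.29), and Hcar2, a receptor for niacin and ketone bodies in myeloid cells (2.93 ± 0.27), also rose, from under 1 FPKM in every saline library to 3.29 FPKM or more in every LPS library.

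Trex1, a DNA exonuclease that limits sensing of cytosolic DNA, stood at 0 in each of the 4 saline libraries and reached 21.8, 15.2, 8.86, 2.58 and 5.14 FPKM after LPS (3.26 ± 0.65, adjusted p = 0.00164). It lies wholly within the span of Atrip on the same strand, so its value depends on how the authors' software divided reads between both genes. Akap12, a scaffold that anchors protein kinase A and protein kinase C (chromosome 10, 4266380 to 4359470), was at 2.09, 2.13, 2.12 and 1.15 FPKM in saline and at 31.5, 31.9, 37.9, 17.2 and 16.1 FPKM after LPS (3.22 ± 0.23, adjusted p = 5.14e-12). The lowest LPS library was thus far above the highest saline library, although the choice of leading rises itself required that the groups not overlap. Rnd1 rose from 0.645 to 2.27 FPKM in saline to 11.3 to 20.6 FPKM (2.96 ± 0.32).

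**Figure D3:**
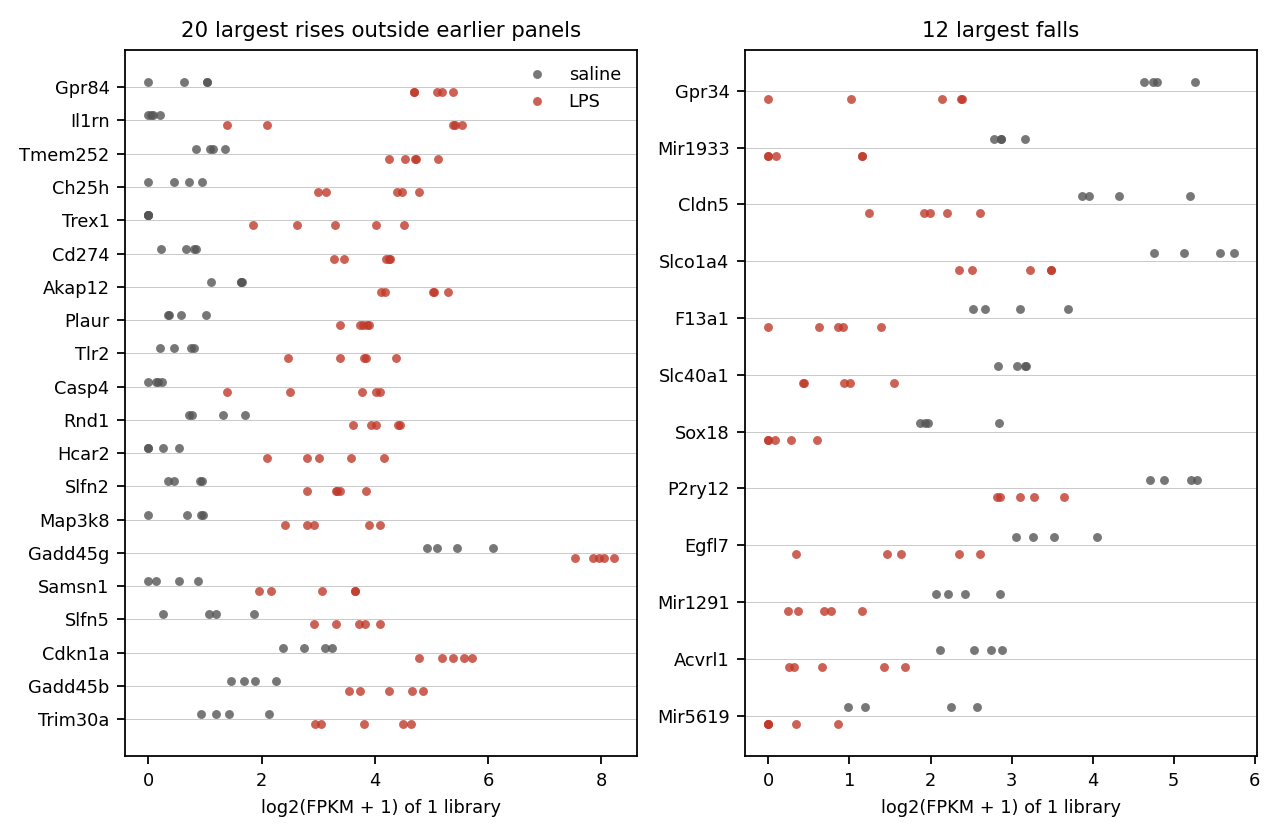
Values of single libraries, as log2(FPKM + 1), for the 20 largest rises outside the familiar panels and the 12 largest falls (grey saline, red LPS). The groups do not overlap for any gene shown, which the choice of genes required, and the LPS points of Il1rn and Casp4 split into 3 high and 2 low libraries.

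Promoters are shown for 4 of these genes because their start regions hold letters that match sites of the transcription factors known for the LPS response. NF-kB binds kappa-B sites and interferon-activated factors bind the interferon-stimulated response element (ISRE). The kappa-B search used GGNNTTTCC or GGGNNTTCC and the ISRE search GAAANNGAA, on both strands, and the 2 kappa-B forms can overlap each other. Sequences are from RefSeq on GRCm38.p6, 250 bases before to 50 after each annotated start, with matches in capitals. They are Cd274 (chr19:29367188-29367487, + strand), Tlr2 (chr3:83841559-83841858, - strand), Casp4 (chr9:5308599-5308898, + strand) and Slfn5 (chr11:82951852-82952151, + strand).
Cd274: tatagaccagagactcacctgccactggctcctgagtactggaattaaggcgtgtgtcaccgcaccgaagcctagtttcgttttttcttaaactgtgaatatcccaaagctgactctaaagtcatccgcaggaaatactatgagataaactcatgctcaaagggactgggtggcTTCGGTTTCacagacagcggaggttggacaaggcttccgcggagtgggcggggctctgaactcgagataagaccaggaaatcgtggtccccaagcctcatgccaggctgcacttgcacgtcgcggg
Tlr2: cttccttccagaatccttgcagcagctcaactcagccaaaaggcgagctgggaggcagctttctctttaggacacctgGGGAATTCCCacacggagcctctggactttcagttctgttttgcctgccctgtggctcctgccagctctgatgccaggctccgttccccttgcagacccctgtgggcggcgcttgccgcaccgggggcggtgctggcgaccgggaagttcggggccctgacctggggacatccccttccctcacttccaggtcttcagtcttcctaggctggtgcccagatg
Casp4: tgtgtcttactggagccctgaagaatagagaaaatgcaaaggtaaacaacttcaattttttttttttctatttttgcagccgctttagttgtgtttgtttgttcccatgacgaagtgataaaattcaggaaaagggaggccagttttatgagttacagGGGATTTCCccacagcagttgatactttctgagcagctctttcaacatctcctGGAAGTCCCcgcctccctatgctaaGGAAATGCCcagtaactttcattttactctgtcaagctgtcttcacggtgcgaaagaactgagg
Slfn5: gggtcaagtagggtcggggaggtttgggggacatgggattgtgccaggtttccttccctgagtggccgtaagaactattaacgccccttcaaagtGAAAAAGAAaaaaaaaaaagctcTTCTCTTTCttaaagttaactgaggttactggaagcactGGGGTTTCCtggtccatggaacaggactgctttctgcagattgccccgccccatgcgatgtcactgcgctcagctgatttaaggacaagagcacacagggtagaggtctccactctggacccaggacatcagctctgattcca

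The Cd274 window held 1 ISRE match, TTCGGTTTC, that begins 76 bases before the start (position -76). Tlr2 held a palindromic kappa-B stretch read on both strands as GGGAATTCC and GGAATTCCC, at -172 and -171. Casp4 held 3 kappa-B matches, at -92, -39 and -14, and Slfn5 held 2 ISRE matches, at -155 and -132, and 1 kappa-B match at -93. The 4 genes were shown for their matches and do not stand for the leading rises. Gpr84, Tmem252, Trex1, Gadd45g, Gadd45b, Cdkn1a and Samsn1 had no kappa-B or ISRE match in their windows, while Slfn2 had 1 kappa-B and Trim30a 1 ISRE match. Among 9988 tested genes with a RefSeq window, 11.3% had a kappa-B match and 7.16% an ISRE match. The shares were 13.2% and 9.87% in the 152 windows of genes that rose outside the panels, 30.5% and 35.8% in the 95 windows of genes that rose within the panels, and 6.52% and 10.9% in the 46 windows of genes that fell. The AP-1 form TGANTCA was in 9.87% of windows outside the panels and 16.8% within them, against 4.77% of all windows, and the GAS form TTCNNNGAA, bound by STAT dimers, in 7.89% and 24.2% against 6.71%. The cyclic AMP response element TGACGTCA was in 1.32% of the windows of genes that rose outside the panels against 3.35% of all, and the C/EBP form TTGCNCAA in 3.95% against 2.14%. The windows of rising genes outside the panels were thus closer to those of all genes than the windows of the panel genes were, for kappa-B, ISRE and GAS. The panels were chosen to hold interferon-response, NF-kB and STAT3 genes. The split itself therefore favours this difference, and no conclusion about the genes outside is drawn from it. A match describes the letters only and is not a measured binding site, and these shares were not tested.

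Regulators of MAP kinase signalling held the most called members of any list, 12 higher and 1 lower of 29 tested. Their median log2 change was 0.76, against 0.02 for all genes, and 5 of the 29 belong to the familiar panels. Members of this and the other lists were chosen with earlier results of these data known, so list counts and medians are descriptions and not tests. Over all genes 1.94% were higher and 0.443% lower, and the count of every list below is to be read beside these shares. The MAP kinase list covers the Gadd45 proteins, which bind and activate a kinase upstream of p38 and JNK. It also covers the dual-specificity phosphatases that switch MAP kinases off, and related kinases and pseudokinases. Gadd45g had the highest level of the rising members (chromosome 13, 51846678 to 51848468), at 29.3, 33.3, 42.7 and 66.9 FPKM in saline and at 296, 229, 183, 262 and 246 FPKM after LPS (log2 2.53 ± 0.30, adjusted p = 3.28e-07). The lowest LPS library was above the highest saline library, which its choice as a leading rise required, and libraries 4 and 5 were in the middle of the LPS range. Gadd45b rose from 1.76 to 3.74 FPKM in saline to 10.6 to 27.9 FPKM (2.39 ± 0.32) and Gadd45a by 1.16 ± 0.28, a call lost without saline replicate 1 (adjusted p = 0.0850).

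Of the 4 Map3k kinases in the list, 3 rose, and Map3k5 did not pass (0.48, adjusted p = 0.351). Map3k8, the kinase Tpl2 that links Toll-like receptors to ERK, was at 0 to 0.960 FPKM in saline and at 13.9, 16.1, 6.62, 4.30 and 6.01 FPKM after LPS (2.58 ± 0.32). Map3k6, a stress-activated kinase, rose by 2.89 ± 0.51 and Map3k14, the NF-kB-inducing kinase of the non-canonical pathway, by 1.87 ± 0.31. Of the inhibitors, the phosphatase Dusp2 rose by 2.23 ± 0.32 and Errfi1, an inhibitor of the EGF receptor, by 1.44 ± 0.19. Trib2, a pseudokinase of the Tribbles family, was the member that fell, from 21.4 to 29.4 FPKM in saline to 10.6, 10.6, 10.8, 21 and 17.6 FPKM (-0.86 ± 0.20), with no overlap, and this call was lost without saline replicate 3 (adjusted p = 0.0585).

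The TNF receptor family and its signalling proteins had 8 of 27 members higher and none lower (median 0.47). Tnfsf9, the ligand 4-1BBL, was at 0.238, 0.390, 0.411 and 0.935 FPKM in saline and at 30.7, 35.2, 24.2, 6.38 and 4.19 FPKM after LPS (3.46 ± 0.38). Tnfsf10, the death ligand TRAIL, rose from 0.0585 to 0.259 FPKM in saline to 2.97 to 8.07 FPKM (2.41 ± 0.16, adjusted p = 1.27e-12), a small level. Birc3, an inhibitor of apoptosis that acts in NF-kB signalling, rose by 2.26 ± 0.36, and the receptor Cd40 by 2.14 ± 0.22. The death receptor Fas was at 6.01 to 11.5 FPKM in saline and at 25.1, 35.1, 25.0, 7.85 and 15.2 FPKM after LPS, so 1 LPS library lay within the saline range. Its call (1.28 ± 0.30) was lost without saline replicate 1 or LPS replicate 2 (adjusted p up to 0.0602).

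Among the 25 interleukin and interferon receptors and their soluble inhibitors, 6 were higher and none lower (median 0.26). Besides Il1rn these were Osmr, the oncostatin M receptor (from 2.79 to 7.23 FPKM in saline to 43.8, 57.4, 57.1, 11.9 and 8.27 FPKM, log2 2.17 ± 0.42), Il4ra (2.0 ± 0.32), the common gamma chain Il2rg (2.0 ± 0.35), the interleukin-1 receptor Il1r1 (1.71) and the interleukin-18 binding protein Il18bp (1.02). All 5 LPS libraries were above saline for Osmr, the first 3 by the most, and its call was lost when only the 3 h libraries were fitted. Il18bp lost its call without any 1 of 7 libraries (all saline and LPS 1, 3 and 5, adjusted p up to 0.175) and without LPS libraries 4 and 5.

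Of 16 caspase, inflammasome and pyroptosis genes 3 were higher and none lower (median 0.37). These were Casp4, the cytokine Il1b and Nlrc5, a regulator of MHC class I genes (from 0.0689 to 0.300 FPKM to 1.53 to 5.02 FPKM, log2 1.84 ± 0.26). Casp1 (0.47, adjusted p = 0.640) and the pore-forming Gsdmd (0.63, adjusted p = 0.471) did not pass. Il1b was at 45.5, 71.0, 47.7, 12.2 and 4.49 FPKM after LPS and at 0.203, 0.211, 0 and 1.13 FPKM in saline (4.29 ± 0.48). Of 15 BCL2 family members 2 were higher (median 0.47), the survival genes Bcl2a1b (1.62 ± 0.45, adjusted p = 0.0481) and Bcl2a1a (1.48 ± 0.41, adjusted p = 0.0435). These are near-identical copies among which reads may have been divided, their LPS replicates 4 and 5 were at 0 to 1.29 FPKM, and their adjusted p in the authors' deposited table was 0.0711 and 0.679. Without single libraries, 7 for Bcl2a1b (all saline and LPS 1 to 3) and 6 for Bcl2a1a (saline 1, 3 and 4 and LPS 1 to 3), the calls were lost, with adjusted p up to 0.207 and 0.168.

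Of 5 genes tested from the Schlafen family with Samhd1, 4 were higher (median 1.42): Slfn2, a regulator of T cell quiescence, from 0.272 to 0.928 FPKM to 5.96 to 13.3 FPKM (2.67 ± 0.30), Slfn5 (2.48 ± 0.27), Slfn9 (1.42 ± 0.26) and Samhd1 (1.03 ± 0.28), a nucleotide hydrolase that restricts viruses. Samhd1 lost its call without any 1 of 5 libraries (saline 2 to 4 and LPS 2 and 3, adjusted p up to 0.173) and, with Slfn9, when only the 3 h libraries were fitted. Schlafen genes lie close together and resemble each other, and Slfn5 overlaps the antisense gene Slfn5os, which rose by 2.31 ± 0.33, so the division between members is uncertain. Of 20 PARP and ADP-ribosylation genes 5 were higher (median 0.25), led by Parp14, at 0.442, 0.588, 0 and 0.303 FPKM in saline and 7.72 to 11.7 FPKM after LPS (2.98 ± 0.28), Parp10 (1.78 ± 0.32) and Dtx3l (1.44 ± 0.22), the partner of Parp9.

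Of 35 TRIM proteins and ubiquitin enzymes 8 were higher and none lower (median 0.29). Usp18, which removes Isg15 from proteins and restrains interferon signalling, was at 1.40, 0.441, 0 and 2.51 FPKM in saline and at 8.52 to 22.6 FPKM after LPS (3.21 ± 0.37). Trim30a rose by 2.36 ± 0.32 and Trim25, which activates the RNA sensor RIG-I, by 1.83 ± 0.33. Trim30a has the near copy Trim30d, which did not pass (1.07, adjusted p = 0.143). Several of these genes are interferon-stimulated in other settings, and 3 of the list belong to the familiar panels.

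Of 41 stress- and signal-responsive transcription factors 9 were higher and none lower (median 0.45). Csrnp1 rose from 1.60 to 3.41 FPKM to 7.88 to 15.7 FPKM (2.07 ± 0.25), Batf, an AP-1 family factor, from 0 to 1.14 FPKM to 3.56 to 4.68 FPKM (1.83 ± 0.28), and Myc, the growth-promoting factor, from 1.89 to 4.28 FPKM to 8.07 to 14.6 FPKM (1.56 ± 0.29). LPS libraries 4 and 5 held the highest Myc values. The nuclear body genes Sp100, Sp110 and Sp140 and the factors Mafk, Klf6 and Batf2 completed the 9. Of these, Sp100 lost its call without saline replicate 3 or LPS replicate 2 or 3 (adjusted p up to 0.119), Mafk without saline replicate 1 or 2 or LPS replicate 1 (up to 0.145), and Batf2 without any saline library or LPS replicate 1, 2 or 3 (up to 0.141). Csrnp1 lies wholly within the annotated span of Cx3cr1 on the same strand. Atf3, a stress factor, had a log2 change of 0.96 and did not pass (adjusted p = 0.435).

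Of 20 clock genes 2 were higher and none lower (median 0.02). Bhlhe40, a repressor in the clock loop that also responds to many stimuli, was at 27.3, 25.6, 35.8 and 38.2 FPKM in saline and at 88.8, 82.1, 73.8, 104 and 98.1 FPKM after LPS (1.47 ± 0.22, adjusted p = 2.90e-05). Nfil3, a repressor that also acts in immune cells, rose by 1.22 ± 0.27 from under 1 FPKM. Of 20 p53 target genes 3 were higher (median 0.36), led by the cell cycle inhibitor Cdkn1a (p21), at 5.70, 4.18, 7.68 and 8.46 FPKM in saline and 46.7, 35.5, 26.3, 40.8 and 51.7 FPKM after LPS (2.46 ± 0.39, adjusted p = 6.44e-05), with Gadd45a and Fas as the other two. Of 24 mRNA decay genes 2 were higher, Zfp36 (tristetraprolin), which speeds decay of cytokine mRNAs, from 5.75 to 13.7 FPKM to 31.4 to 60.6 FPKM (2.16 ± 0.32), and the RNase Zc3h12a (0.90 ± 0.20); the median of the list was -0.05.

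Of 29 enzymes of immune metabolism 4 were higher (median 0.25): Ch25h, the mitochondrial nucleotide kinase Cmpk2 (from 4.03 to 5.62 FPKM to 27.8 to 43.8 FPKM, log2 2.77 ± 0.19), the purine oxidase Xdh (1.68 ± 0.21) and Gch1, the first enzyme of tetrahydrobiopterin synthesis (1.0). Of 24 hypoxia-response genes 2 were higher (median -0.02), both of glycolysis: Pfkfb3, which makes the activator of phosphofructokinase, went from 16.2, 19.1, 18.1 and 14.9 FPKM to 49.6, 59.6, 52.8, 38.3 and 37.9 FPKM (1.41 ± 0.24), and Hk2 rose by 1.07 ± 0.21, a call lost when only the 3 h libraries were fitted. Of 25 amino acid response genes, Mthfd2, a mitochondrial folate enzyme, was the only member to pass (1.11 ± 0.24). With 1.94% of all genes higher, this single call is not read as a result about the list.

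Outside the cell, 7 of 33 proteases, inhibitors and coagulation genes were higher and none lower (median 0.24). Besides Plaur these included the inhibitors Timp1 and A2m and the proteases Adamts4 (1.60), Adamts1 (1.34), Mmp17 (1.17) and Mmp13 (1.81). Timp1, which lies within the span of Syn1 on the opposite strand, was at 15.1, 18.6, 7.24, 1.52 and 2.65 FPKM after LPS and at 0 to 2.18 FPKM in saline, so the groups overlapped (2.16 ± 0.49), and the call was lost without saline replicate 1 (adjusted p = 0.0552). A2m (1.95 ± 0.51) lost its call without any 1 of 6 libraries (saline 1 to 3 and LPS 1 to 3, adjusted p up to 0.117). Mmp17 did so without any 1 of 5 (saline 1 to 3 and LPS 1 and 5, up to 0.104). Mmp13 stood at 0 in every saline library and in LPS libraries 4 and 5, and at 11.6, 6.76 and 4.47 FPKM in the first 3.

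Of 35 integrins, cadherins and matrix ligands 3 were higher (median 0.21): the fibronectin receptor chain Itga5 (1.48 ± 0.28), the galectin Lgals9 (from 2.47 to 10.3 FPKM to 19.2 to 40.2 FPKM, 2.29 ± 0.44) and Itga7 (0.92 ± 0.25), which lost its call without any 1 of 7 libraries (saline 1 to 3 and LPS 1, 2, 4 and 5, adjusted p up to 0.183).

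Of 42 growth factors and related ligands 2 were higher and 1 lower (median 0.09). Over all genes 1.94% were higher and 0.443% lower, and counts as small as those in this paragraph are not read as results about the lists. Angptl4, an inhibitor of lipoprotein lipase, went from 3.33 to 7.66 FPKM to 15.9, 23.0, 16.2, 18.2 and 44.3 FPKM (1.98 ± 0.43). Angpt2 (0.80 ± 0.20), the Tek antagonist of blood vessels, and the endothelin Edn3 (-1.09 ± 0.29) were at most 2.66 and 1.87 FPKM in any library. Angpt2 lost its call without any 1 of 6 libraries (saline 1 to 3 and LPS 1 to 3, adjusted p up to 0.144) and Edn3 without any 1 of 7 (saline 1, 2 and 4 and LPS 1, 2, 3 and 5, adjusted p up to 0.106). Of 41 G protein-coupled receptors and regulators 2 were higher, Gpr84 and Rgs16 (1.90 ± 0.23), and 2 lower, Rgs1 (-1.44 ± 0.36) and Rgs2 (-1.12 ± 0.23), all 3 Rgs proteins being GTPase activators that shorten receptor signals. Rgs1 lost its call without saline replicate 2 or 4 or LPS replicate 4 or 5 (adjusted p up to 0.0858), and neither falling Rgs gene passed without LPS libraries 4 and 5.

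Of 37 phospholipid and sphingolipid enzymes 3 were higher, the scramblase genes Plscr2 (2.17 ± 0.29) and Plscr1 (1.64 ± 0.30), which resemble each other, and the phospholipase Pla2g3 (1.29 ± 0.33), and the desaturase Degs2 was lower (-1.22 ± 0.31, median of the list 0.20). Pla2g3 lost its call without any 1 of 6 libraries (saline 1 to 3 and LPS 1, 4 and 5, adjusted p up to 0.0978), and Degs2 without saline replicate 3 or 4 or LPS replicate 4 (up to 0.105). Both lost it without LPS libraries 4 and 5. Of 10 Hedgehog genes the co-receptor Boc passed (0.78 ± 0.20, median of the list 0.04), a call lost without saline replicates 1, 2 or 3 or LPS replicate 1 (adjusted p up to 0.0976). Of 44 chromatin modifiers Phf11b passed (1.69 ± 0.35, median -0.02). It stood at 0 in every saline library and in LPS library 5, and its adjusted p in the authors' deposited table was 0.637. Over all genes 1.94% were higher, so the single calls in the Hedgehog and chromatin lists are not read as results about these lists.

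No member passed among 32 Wnt pathway genes (median -0.11), 18 Hippo pathway genes (-0.03), 39 autophagy and lysosome genes (0.12), 22 heat shock genes and chaperones (-0.03) and 26 long noncoding RNAs (0.04) in limma. Over all genes 1.94% were higher and 0.443% lower, so a count of 0 in lists of this size is near the background. An unadjusted p under 0.05 was found for 2335 of all genes. In the heat shock list, Hspa1b had the largest difference, -1.07 with an adjusted p of 0.50.

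**Figure D4:**
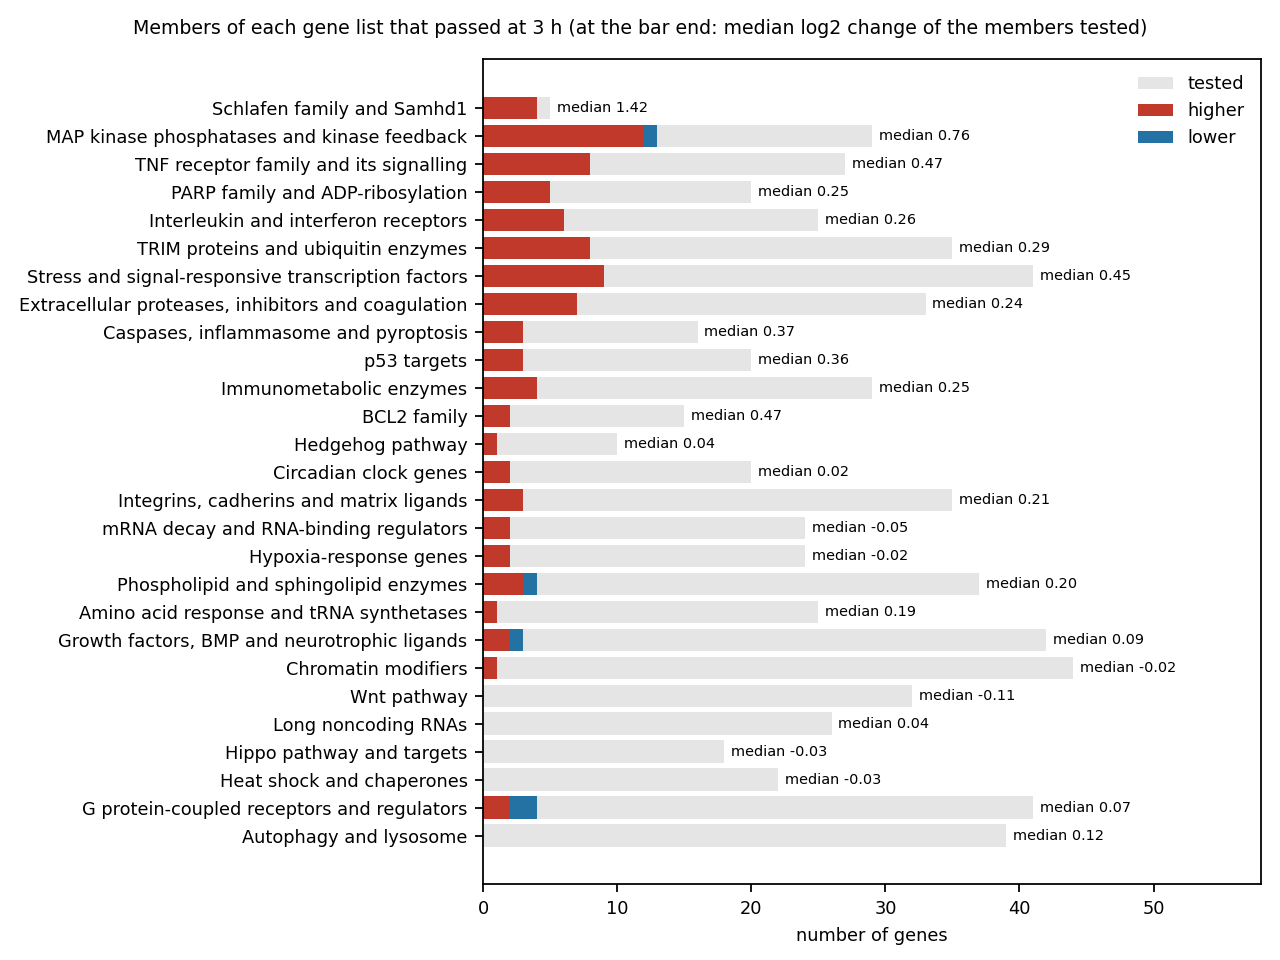
Number of members tested (grey), higher (red) and lower (blue) after LPS at 3 h in each gene list shown, with the median log2 change of the members tested at the bar end. The MAP kinase list has 12 higher of 29, and 5 lists have no called member.

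Of the 86 genes that fell, the largest fall was that of Gpr34, a lysophosphatidylserine receptor of microglia (chromosome X, 13632089 to 13640858). It was at 25.8, 37.4, 23.7 and 26.8 FPKM in saline and at 3.43, 4.22, 4.18, 1.02 and 0 FPKM after LPS (-3.27 ± 0.51, adjusted p = 4.13e-05), although its adjusted p in the authors' deposited table was 0.146. P2ry12, the ADP receptor of microglial processes, fell from 25.1, 38.1, 28.5 and 36.1 FPKM to 11.5, 8.73, 7.59, 6.05 and 6.27 FPKM (-1.88 ± 0.41). These were the only 2 of 18 microglial markers that passed, both lower (median of the list -0.55), and over all genes 0.443% were lower. The others ranged from -1.36 for the fractalkine receptor Cx3cr1 (adjusted p = 0.353) to 0.02 for C1qb (adjusted p = 0.992). Between these were Tmem119 at -0.92 (adjusted p = 0.417), Csf1r at -0.43, Fcrls at -0.18 and Ctss at -0.03, so several markers hardly changed. Both genes lie within the span of a gene on the opposite strand, Cask for Gpr34 and Med12l for P2ry12.

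Of the 13 marker lists, the endothelial list held the most called members, with 5 of 15 markers lower and none higher (median -0.81). Over all genes 0.443% were lower, and the 86 falls as a whole were not sorted by cell type. Slco1a4, an organic anion transporter of brain capillaries (chromosome 6, 141805440 to 141856199), went from 52.4, 46.7, 33.9 and 26.0 FPKM to 8.38, 10.2, 10.2, 4.10 and 4.69 FPKM (-2.29 ± 0.29, adjusted p = 1.15e-06). Cldn5, the claudin of tight junctions, went from 13.6, 14.5, 19.1 and 35.9 FPKM to 5.10, 2.77, 3.61, 1.37 and 3.00 FPKM (-2.34 ± 0.44, adjusted p = 0.000662). The groups did not overlap for either gene, which their choice as leading falls required. The angiopoietin receptor Tek (-1.46 ± 0.30), the VEGF receptor Kdr (-1.24 ± 0.28) and the factor Sox17 (-0.99 ± 0.25) were the other three, and Sox17 lost its call without saline replicate 2 or 4 or LPS replicate 1 (adjusted p up to 0.113).

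Further vascular genes outside the marker list were among the 12 largest falls. Sox18, an endothelial transcription factor, went from 2.66 to 6.19 FPKM to 0 to 0.511 FPKM (-1.96 ± 0.35), Egfl7, a secreted endothelial protein, from 7.27 to 15.6 FPKM to 0.267 to 5.11 FPKM (-1.79 ± 0.37), and Acvrl1, a receptor for bone morphogenetic proteins in vessels, from 3.35 to 6.35 FPKM to 0.195 to 2.23 FPKM (-1.70 ± 0.37). Not every endothelial gene was lower: Cdh5, the cadherin of endothelial junctions, had a change of 0.81 (adjusted p = 0.165). Esam changed by 0.11 and Slco1c1, the marker with the highest level (mean 293 FPKM in saline and 273 FPKM after LPS), by -0.10. The saline mean of Slco1c1 was far above those of Itm2a (94.1 FPKM), Ly6c1 (72.2 FPKM) and Cldn5 (20.8 FPKM). Which cells its reads came from was not tested. The vessel genes Selp and Ackr1, given under other observations, rose. The endothelial marker sum was lower too, as given above, but it includes the falling markers and is not a separate measure. Its part in the falls of the other vascular genes was not tested. Slc40a1, the cellular iron exporter ferroportin (chromosome 1, 45908068 to 45926523), fell from 7.38, 7.99, 6.13 and 8.06 FPKM to 0.354, 0.350, 0.915, 1.02 and 1.94 FPKM (-2.19 ± 0.29, adjusted p = 2.32e-06).

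F13a1, the coagulation factor XIII A chain known from border macrophages, was at 4.77 to 11.9 FPKM in saline and at 0 to 1.62 FPKM after LPS (-2.24 ± 0.57, adjusted p = 0.0208). It was the 1 of 6 border macrophage markers that passed (median of the list -1.09), and over all genes 0.443% were lower. The F13a1 call was lost without saline replicate 1 or 4 or LPS replicate 5 (adjusted p up to 0.111), or without LPS libraries 4 and 5 (-1.94, adjusted p = 0.167). The microRNA loci Mir1933 (-2.44 ± 0.40), Mir1291 (-1.75 ± 0.40) and Mir5619 (-1.51 ± 0.39) were also among the 12. In the authors' deposited table the adjusted p was 0.0867 for Mir1933, 0.149 for Mir1291 and 0.104 for F13a1, and none was given for Mir5619. Each microRNA locus lies wholly inside a host gene on the same strand (Ugp2, Kansl2 and Nudt9). The microRNA values are thus of reads at the hairpin locus and not of the mature microRNA. Mir1291 lost its call without saline replicate 3 (adjusted p = 0.050), and Mir5619 without any 1 of 5 libraries (saline 1 and 2 and LPS 1, 3 and 5, adjusted p up to 0.173). No marker of pericytes, fibroblasts, oligodendrocytes or their precursors, neurons, ependymal cells, neutrophils and monocytes, lymphocytes or erythroid cells passed among those tested, which were 1 of 12 for lymphocytes, 3 of 11 for neutrophils and monocytes and 5 of 8 for fibroblasts. The neutrophil gene S100a8 stood at 0 in the saline libraries and in LPS library 1 and at 1.95, 5.02, 1.03 and 1.69 FPKM in LPS libraries 2 to 5 (1.32, adjusted p = 0.284).

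In time, the response at 3 h differed from that at 24 and 72 h in females when the difference of LPS effects was tested. The effect was larger at 3 h than at 24 h for 81 genes (0.417%) and smaller for 57 (0.293%). It was larger than at 72 h for 112 genes (0.577%) and smaller for 36 (0.185%). Larger means a more positive log2 change at 3 h and smaller a more negative one, so a deeper fall at 3 h counts as smaller. Of the 376 genes higher at 3 h, 70 were among the 81 and 111 among the 112. Of the 86 genes lower at 3 h, 10 were among the 57 and 23 among the 36. Both contrasts between times share the 3 h libraries with the comparison above. The 24 h female libraries were deposited in 2 number formats, and with only those of the format used at 3 h, which leaves 1 LPS library assumed to vary like the others, 12 genes were larger and 4 smaller at 3 h. At 24 h 494 genes were higher and 155 lower against their own saline libraries, and at 72 h 15 were higher and none lower. Of the 376 genes higher at 3 h, 130 were also among the 494 of 24 h and 6 among the 15 of 72 h, and of the 86 lower genes 7 were among the 155 of 24 h.

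The LPS effect of several rising genes was smaller at the later times. Akap12 changed by log2 3.22 at 3 h, 0.08 at 24 h and 0.77 at 72 h, with a difference of 3.14 between 3 and 24 h (adjusted p = 3.12e-07). Rnd1 changed by 2.96, 0.04 and 0.16, and Tnfsf10 by 2.41, 0.06 and 0.06. Gpr84 changed by 4.33, 1.12 and 0.77, and passed at 24 h at the lower level (adjusted p = 0.0288). Bhlhe40 changed by 1.47, -0.11 and 0.13, and Gadd45g by 2.53, 0.53 and -0.83.

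Other genes were as high at 24 h or higher. Cdkn1a changed by 2.46 at 3 h, 2.76 at 24 h and -0.12 at 72 h, and Osmr by 2.17, 2.36 and 0.90. Timp1 changed by 2.16 at 3 h and 5.58 at 24 h, a difference of -3.42 (adjusted p = 0.00670). The 4 largest differences in the direction of 24 h were for Fbln5, an elastic fibre protein (0.14 at 3 h and 5.02 at 24 h), Serping1, the C1 inhibitor (0.73 and 5.08), Gpx3, an extracellular glutathione peroxidase (0.48 and 4.77), and Serpina3n (2.81 and 6.88). Of these only Serpina3n had passed at 3 h.

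Of the 5 endothelial markers that fell at 3 h, the difference from 24 h passed for Slco1a4 and Cldn5. It did not pass for Tek (-1.01, adjusted p = 0.455), Kdr (-1.08, adjusted p = 0.347) or Sox17 (-1.13, adjusted p = 0.168). Slco1a4 changed by -2.29 at 3 h, 0.29 at 24 h and 0.77 at 72 h (difference from 24 h -2.57, adjusted p = 0.000283), and Cldn5 by -2.34, 0.63 and 0.39 (difference -2.97, adjusted p = 0.00881). P2ry12 differed in that it was lower at both 3 h (-1.88) and 24 h (-1.83) and at 0.15 at 72 h. Gpr34 changed by -3.27 at 3 h, -1.58 at 24 h, which did not pass, and 0.66 at 72 h (difference from 72 h -3.94, adjusted p = 0.00394). Slc40a1 changed by -2.19, -0.87 and 0.73, with a difference of -2.91 from 72 h (adjusted p = 9.48e-05).

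**Figure D5:**
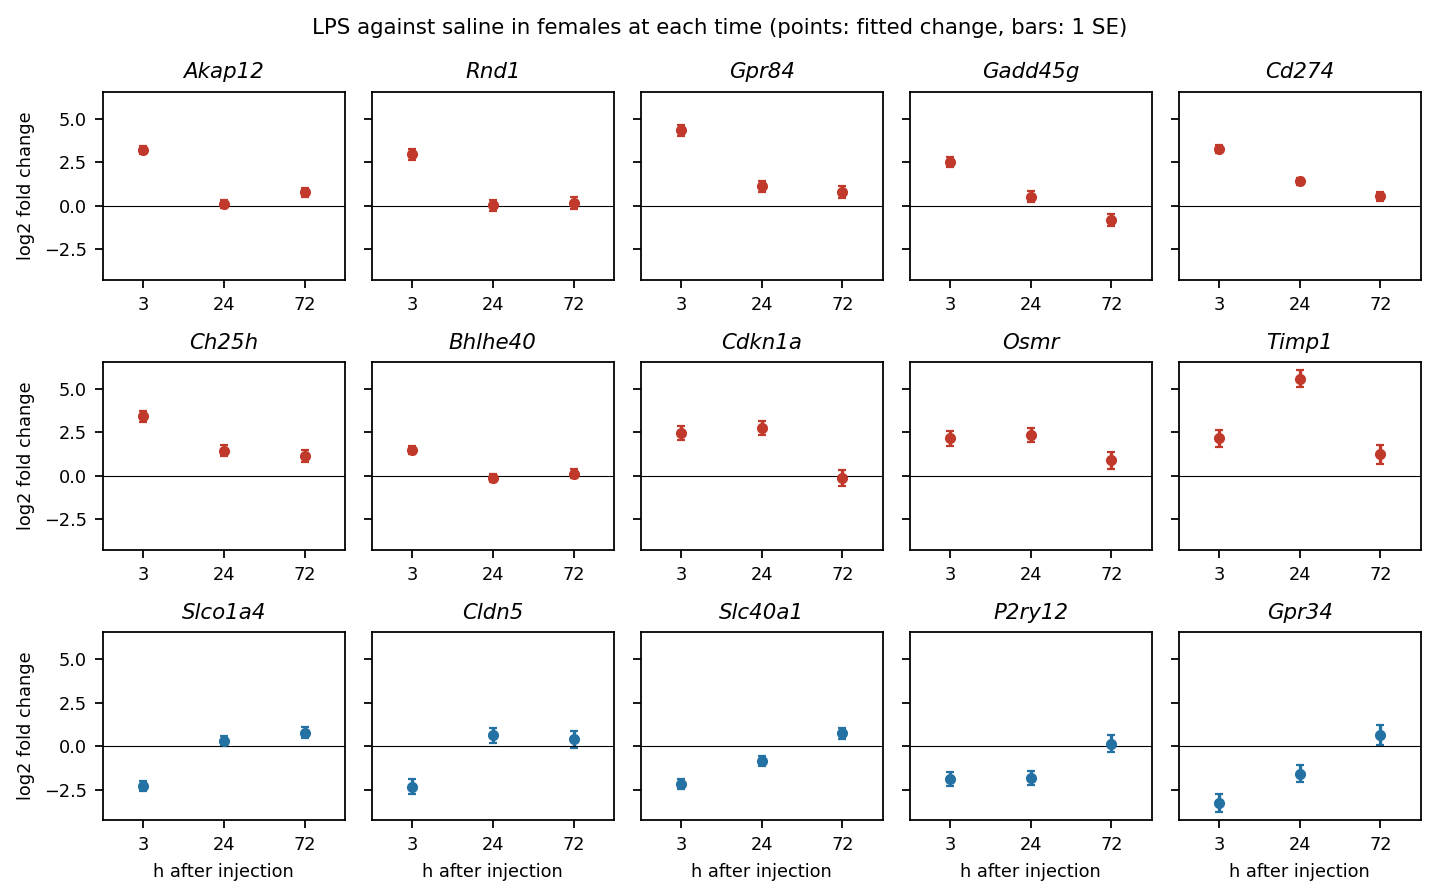
Fitted log2 fold change of LPS against saline in females at 3, 24 and 72 h (points) with 1 SE (bars), for 15 genes, each time with its own saline libraries. Akap12 and Rnd1 are near 0 at 24 h, Timp1 is larger at 24 h (5.58) than at 3 h (2.16), and Slco1a4 and Cldn5 are below 0 at 3 h alone.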

How the data were processed

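RNA of sorted astrocytes was made into SMART-seq HT and Nextera XT libraries, per the labels' protocols. HISAT2, StringTie, DESeq2 and the build mm10 are named in the submitters' processing notes, and versions are not given in the sources used here. The authors deposited FPKM per gene for 35 libraries, with log2 fold changes and adjusted p-values in the authors' deposited table. The table had 19584 rows, of which 11 repeated an identifier (the first was kept), and 20 symbols turned into dates were restored. Coordinates and overlaps are from GENCODE M21.

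Genes at 1 FPKM or more in at least 3 libraries were tested with limma 3.58.1 in R 4.3.3 on log2(FPKM + 1), with a mean for each of 8 groups over all libraries, a trend in the prior variance and Benjamini-Hochberg adjustment, called under 0.05. The procedure was tested on simulated data. Tables were made with Python 3.11.15 and pandas 2.3.3. Members, lists and rules were chosen with earlier results of these data known. Genes named are the 20 largest rises and 12 largest falls outside the panels whose groups did not overlap (no clone symbols), up to 3 members of each list, and the largest differences between times; others were chosen after their values were seen. 1 gene list is not reported here.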

Additional observations from a re-analysis of the deposited data

Results flagged for a closer look

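Single libraries lay far from the others of their group for 10 of 190 gene and group combinations examined among the named genes, and chance alone gives about 1 in 20. In saline these were Akap12 in replicate 4 (1.15 FPKM), Csf3 in replicate 2 (0.0679 FPKM), Dtx3l in replicate 3 (0.277 FPKM), Edn3 in replicate 3 (1.23 FPKM), Fas in replicate 2 (11.5 FPKM), Nfil3 and Lst1 in replicate 3 (both listed at 0 FPKM) and Sox18 in replicate 4 (6.19 FPKM). After LPS they were Gadd45a in replicate 5 (3.58 FPKM) and Lst1 in replicate 3 (0.921 FPKM).

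The LPS effect differed between times by a test of the difference in limma. It was larger at 3 h than at 24 h for 81 genes and smaller for 57, and larger than at 72 h for 112 and smaller for 36. Larger and smaller refer to the signed log2 change, so a deeper fall at 3 h counts as smaller. Against 24 h, the largest differences on the log2 scale were 4.06 for the chemokine Cxcl10, 3.94 for Cxcl1, 3.60 for the cytokine Il6, 3.49 for the antiviral gene Rsad2, 3.44 for Cxcl11 and 3.43 for Csf3. In the other direction they were -4.88 for Fbln5, -4.35 for Serping1, -4.29 for Gpx3 and -4.08 for Serpina3n. Against 72 h they were 5.21 for Cxcl1, 4.58 for Rsad2, 4.44 for Cxcl10, 3.90 for Csf3, 3.82 for Gbp2 and 3.70 for Sbno2, and -4.32 for Lst1, -3.94 for Gpr34, -3.86 for Clec4a3 and -3.31 for Adgre1.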

How the results depend on the processing

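Leaving out single libraries gave 291 to 415 higher and 58 to 103 lower genes at 3 h, 65 to 103 genes larger and 36 to 112 smaller than at 24 h (36 without LPS 24 h replicate 1, 112 without LPS 24 h replicate 4), and 76 to 130 larger and 21 to 45 smaller than at 72 h (21 without LPS 72 h replicate 3). Of the genes called at 3 h, 260 higher and 35 lower kept the call whichever single 3 h library was left out. With array weights the counts were 810 higher and 393 lower at 3 h, 260 larger and 215 smaller than at 24 h, and 3675 larger and 1470 smaller than at 72 h. A filter at 5 FPKM gave 50 lower genes and 20 smaller than at 72 h. A pseudocount of 0.1 gave 40 larger and 37 smaller than at 24 h, and 63 larger and 18 smaller than at 72 h. The mitochondrial share as a covariate gave 160 larger and 126 smaller than at 24 h, LPS libraries 4 and 5 left out gave 141 larger, and 24 h libraries of the 3 h number format alone gave 12 larger and 4 smaller. With a replicate block the counts were 240 higher and 48 lower (3 h libraries only), 50 larger than at 24 h, and 47 larger and 17 smaller than at 72 h. Replicate numbers did not pair the samples: deviations of same-numbered LPS and saline libraries correlated at 0.0251, 0.214, -0.0922 and 0.372. The cause of these movements was not tested. No direction reversed. Of 89 named genes called at 3 h, 63 kept the call under every alternative and 73 with every single library left out. A fit of the 3 h libraries only lost 17 of the 89, Egfl7 among them, and the calls of Klf6, Trib2 and Mmp13 were lost in it too. Depth in reads is not known, so low FPKM values carry an unknown counting error.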

Other observations

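The vessel genes Selp and Ackr1, chosen after their values were seen, rose at 3 h. Selp, the adhesion molecule P-selectin, was at 0, 0.0206, 0 and 0.126 FPKM in saline and at 3.68, 2.29, 2.28, 1.80 and 3.14 FPKM after LPS (log2 1.79 ± 0.21 in limma). Ackr1, a chemokine-binding receptor of venules, rose by 1.96 ± 0.40. The groups did not overlap for Selp.

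Art3 was at 10.7, 4.32, 4.12 and 6.94 FPKM in saline and at 137, 107, 113, 6.85 and 11.5 FPKM after LPS (2.64 ± 0.55, adjusted p = 0.00248), and its groups overlapped. It spans Cxcl10 and Cxcl11, which lie on the opposite strand, and its call was lost when only the 3 h libraries were fitted.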
